A study of Mus musculus with 18 samples.

Results

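The 10 genes described here encode the enzymes that write and remove the marks on lysine 27 of histone H3, together with core and accessory subunits of the main methylating complex. They were chosen by name as Ezh1, Ezh2, Eed, Suz12, Jarid2, Mtf2, Rbbp4, Kdm6b, Ep300 and Crebbp, which are 10 of the 21938 protein-coding genes of GENCODE vM21 outside the mitochondrial chromosome. For each gene, the peaks of H3K27me3, the trimethylated form associated with gene silencing, and of H3K27ac, the acetylated form found at active promoters and enhancers, were listed from 5 kb before the gene to 1 kb after it. These windows ran from 21.2 kb for Kdm6b to 198 kb for Jarid2.

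The cells were unstimulated bone marrow-derived macrophages (BMDM), grown from marrow with medium conditioned by L929 cells as a source of macrophage colony-stimulating factor. They came from male WT mice (strain label C57BL6), mdx mice (label Dmdmdx-4Cv), which carry a dystrophin mutation and are a model of Duchenne muscular dystrophy, and mdxTLR4-/- mice (label Bl6/Bl10), which carry the mdx mutation and also lack TLR4, a receptor of the innate immune system. H3K27me3 was measured in 2 ChIP and 2 input libraries per genotype, and H3K27ac in 2 ChIP libraries of WT, 2 of mdx and 1 of mdxTLR4-/- BMDM, with 1 input library whose labels give the strain C57BL6 and no genotype. The authors merged the replicates before calling peaks, so that each mark and genotype has 1 list of peaks and no spread between mice. No group lacked TLR4 without the mdx mutation, and both mutations are carried by all cells of the animal rather than by macrophages alone. The labelled age of the mice was 12 to 13 weeks for WT, 14 to 15 for mdx and 16 to 17 for mdxTLR4-/- in the H3K27me3 ChIP libraries, and 19 to 20, 21 to 22 and 23 weeks in those of H3K27ac. Their inputs were labelled 6 to 7, 8 to 9 and 10 to 11 weeks for H3K27me3 and 18 weeks for H3K27ac. The labelled ages thus rise by 1 week from each library to its successor through the series, and whether they are true ages was not tested. The study places its WT, mdx and TLR4-/- mice on the C57BL/6J background and describes WT controls of matched age, but its account of the ChIP libraries gives no age, and the strain label of the mdxTLR4-/- libraries names Bl10 as well. As labelled, genotype and age cannot be told apart, nor can the lack of TLR4 and the strain given for mdxTLR4-/- mice.

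EZH1 and EZH2 are the alternative catalytic subunits of Polycomb repressive complex 2 (PRC2), which methylates lysine 27, and the enzymes work only together with EED and SUZ12. KDM6B (also called JMJD3) removes the methyl groups and is known as a gene that macrophages induce on inflammatory stimulation. The same lysine can instead carry an acetyl group, placed by the closely related acetyltransferases p300 and CBP, the products of Ep300 and Crebbp, so that the presence of one mark on a histone tail precludes the other.

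Across the 3 genotypes, 9 of the 10 genes had no H3K27me3 peak anywhere in their windows. The same held for 55.5% of protein-coding genes, and for 51% of those with windows of at least 20 kb. Of the 10, only Crebbp had such a peak, a single domain upstream of its start in every genotype. H3K27ac lay within 1 kb of the start for 8, 6 and 6 of the 10 genes (WT, mdx and mdxTLR4-/- lists). The matching shares of protein-coding genes were 27.9%, 23.8% and 25.7%. At the 10 genes these H3K27ac peaks held up to 37 reads, and a peak inside the body of Kdm6b held up to 64. Sequences from both loci follow to show their base composition, read 5′ to 3′ on the strand of the gene from the RefSeq GRCm38 genome, with every CpG dinucleotide in capitals. They contrast the CpG-rich bases just before the Crebbp start with the CpG-poor domain that carried H3K27me3, and the CpG-poor bases before the Kdm6b start with the acetylated interval inside that gene. All 5 stretches lie on the minus strand: chr16:4213998-4214247 before the Crebbp start, chr16:4214601-4214800 under both marks in WT BMDM, chr16:4214823-4215122 with the most CpG of any 300 bases of the H3K27me3 domain shared by the 3 genotypes, chr11:69413676-69413925 before the Kdm6b start, and chr11:69409932-69410231 with the most CpG of any 300 bases of the shared H3K27ac interval outside exons.
Crebbp, 250 bases before the start: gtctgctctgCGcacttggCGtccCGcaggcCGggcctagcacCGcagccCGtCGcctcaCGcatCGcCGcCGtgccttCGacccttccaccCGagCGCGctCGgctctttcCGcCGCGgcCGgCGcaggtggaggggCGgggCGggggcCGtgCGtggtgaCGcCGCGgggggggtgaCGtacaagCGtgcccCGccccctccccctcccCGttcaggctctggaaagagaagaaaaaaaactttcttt
Crebbp, under both marks in WT: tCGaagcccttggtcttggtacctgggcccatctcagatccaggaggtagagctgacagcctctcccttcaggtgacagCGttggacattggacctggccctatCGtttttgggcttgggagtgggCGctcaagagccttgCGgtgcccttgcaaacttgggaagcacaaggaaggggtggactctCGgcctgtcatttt
Crebbp, within the H3K27me3 domain: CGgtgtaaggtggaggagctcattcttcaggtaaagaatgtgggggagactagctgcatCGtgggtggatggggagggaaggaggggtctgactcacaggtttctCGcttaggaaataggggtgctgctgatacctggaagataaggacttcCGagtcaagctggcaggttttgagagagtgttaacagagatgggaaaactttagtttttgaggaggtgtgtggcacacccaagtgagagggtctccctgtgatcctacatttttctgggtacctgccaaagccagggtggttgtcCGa
Kdm6b, 250 bases before the start: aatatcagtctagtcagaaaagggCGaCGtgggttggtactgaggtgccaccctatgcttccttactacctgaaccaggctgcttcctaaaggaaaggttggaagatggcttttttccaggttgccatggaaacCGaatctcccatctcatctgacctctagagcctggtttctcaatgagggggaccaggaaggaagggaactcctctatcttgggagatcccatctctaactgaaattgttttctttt
Kdm6b, within the H3K27ac interval: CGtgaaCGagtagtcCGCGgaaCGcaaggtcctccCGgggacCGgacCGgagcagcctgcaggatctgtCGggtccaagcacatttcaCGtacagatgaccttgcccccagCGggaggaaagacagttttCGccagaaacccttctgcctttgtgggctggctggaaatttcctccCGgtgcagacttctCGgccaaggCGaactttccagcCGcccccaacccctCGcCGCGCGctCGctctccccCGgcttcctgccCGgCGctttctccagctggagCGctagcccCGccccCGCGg

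The peak lists differed in size and depth between marks. The H3K27me3 list of WT held 28143 peaks with 8331331 reads, that of mdx 41780 with 10199918 and that of mdxTLR4-/- 36488 with 7358418. The H3K27ac lists were far shallower, with 15665 peaks and 274020 reads in WT, 12076 and 191629 in mdx, and 12493 and 168487 in mdxTLR4-/- BMDM. An H3K27ac peak held a median of 10 reads in WT and mdx and 8 in mdxTLR4-/- BMDM, and no listed peak held fewer than 5. A gene without a peak is therefore a gene below the detection limit of a list, not one shown to lack the mark. Read counts are unscaled, library depth is unknown, and the 95% intervals given below cover counting error alone.

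The labelled cell type was checked on marker genes. An H3K27ac peak lay within 1 kb of the start of 12 of 12 macrophage markers in WT and 11 of 12 in both mdx and mdxTLR4-/- BMDM, with summed reads of 481, 394 and 336. The most abundant were Lyz2, a lysozyme gene, and Spi1, which encodes the myeloid factor PU.1, with 108 reads each in WT. Lyz2 led in mdx BMDM with 132 reads and Spi1 in mdxTLR4-/- BMDM with 95. None of the 8 lymphocyte, 8 neutrophil, 5 fibroblast and 4 erythroid markers had such a peak in any list.

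H3K27me3 was examined first. Any H3K27me3 peak was found in the window of 1 of the 10 genes in each genotype, whereas 38.4% of protein-coding genes had one in WT cells, 41.3% in mdx cells and 39% in mdxTLR4-/- cells. Long windows catch more peaks, and among genes with windows of at least 20 kb, as all 10 genes have, the shares were 41.8%, 45.6% and 43.3%. Of the 10 genes, 9 had no peak in any of the 3 lists, compared with 51% of genes with windows of that length and 55.5% of all. Genes that carry H3K27ac had fewer. Among those with an H3K27ac peak within 1 kb of the start, any H3K27me3 peak was found in 16.5% in the WT list, 17.1% in that of mdx and 16% in that of mdxTLR4-/-. None of the 10 genes had 50% of its window covered, a level reached by 16.6% of protein-coding genes in WT cells, 16.3% in mdx cells and 14.9% in mdxTLR4-/- cells. The median coverage was 0% for the 10 genes and also 0% for all protein-coding genes in each genotype. Absence of a peak was thus the more common state in the background too, and these shares are a description without a test.

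The distance from each start to the nearest H3K27me3 peak varied widely. Among the 9 genes without a peak in the window it was shortest for Kdm6b, at 6.93 kb in the WT list, 6.13 kb in that of mdx and 6.93 kb in that of mdxTLR4-/-, just beyond the window on the upstream side. Ezh1 had its nearest domain upstream at 11.1, 9.94 and 13.5 kb. For Eed it lay upstream at 14.8, 14.4 and 14.2 kb, and for Suz12 upstream at 16.9, 16.7 and 18.3 kb. The starts of these 4 genes therefore lay within 20 kb of a domain in every genotype, without one in their windows. Farther from the start, Rbbp4 had its nearest peak downstream at 32.8, 35.4 and 32.8 kb, and Jarid2 upstream at 52.5, 53.1 and 53.1 kb. The start of Ep300 lay 71.1 kb from a downstream peak in WT and 106 kb in mdx and mdxTLR4-/- BMDM. That of Ezh2 lay 187, 154 and 155 kb from one. Downstream distances include the gene body, of 28.3 kb in Rbbp4 and 66.7 kb in Ep300, and are not distances from the gene end. Mtf2 differed most between lists. Its nearest peak was 297 kb downstream in WT and mdxTLR4-/- BMDM, but 15.5 kb upstream in mdx BMDM.

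Crebbp was the exception. Its H3K27me3 domain ran from -4.80 to -0.604 kb of the start in WT cells, from -4.80 to -0.804 kb in mdx cells and from -4.40 to -0.404 kb in mdxTLR4-/- cells, and so ended before the gene began in each. It held 110 reads over 4200 bp in the WT list (interval 90.4 to 133), 129 over 4000 bp in that of mdx (108 to 153) and 103 over 4000 bp in that of mdxTLR4-/- (84.1 to 125). These peaks made up 3.03%, 2.88% and 2.88% of a window of 139 kb. The density was 26.2 reads per kb in WT cells, 32.2 in mdx cells and 25.8 in mdxTLR4-/- cells, at percentiles 59.4, 67.8 and 60.5 of the H3K27me3 peaks of the same list. The domain was thus of ordinary density for its list. The unscaled ratio of mdx to WT was 1.23 (interval 0.947 to 1.60), and the median ratio over 4703 protein-coding genes with H3K27me3 over the start in both lists was 1.22. Relative to that median, the Crebbp domain stood at 1.01 in mdx (0.778 to 1.32) and 0.992 in mdxTLR4-/- (0.751 to 1.31) against WT, and at 0.981 (0.750 to 1.28) in mdxTLR4-/- against mdx BMDM. All 3 intervals include 1, so no difference between genotypes was detectable at this depth.

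**Figure D1:**
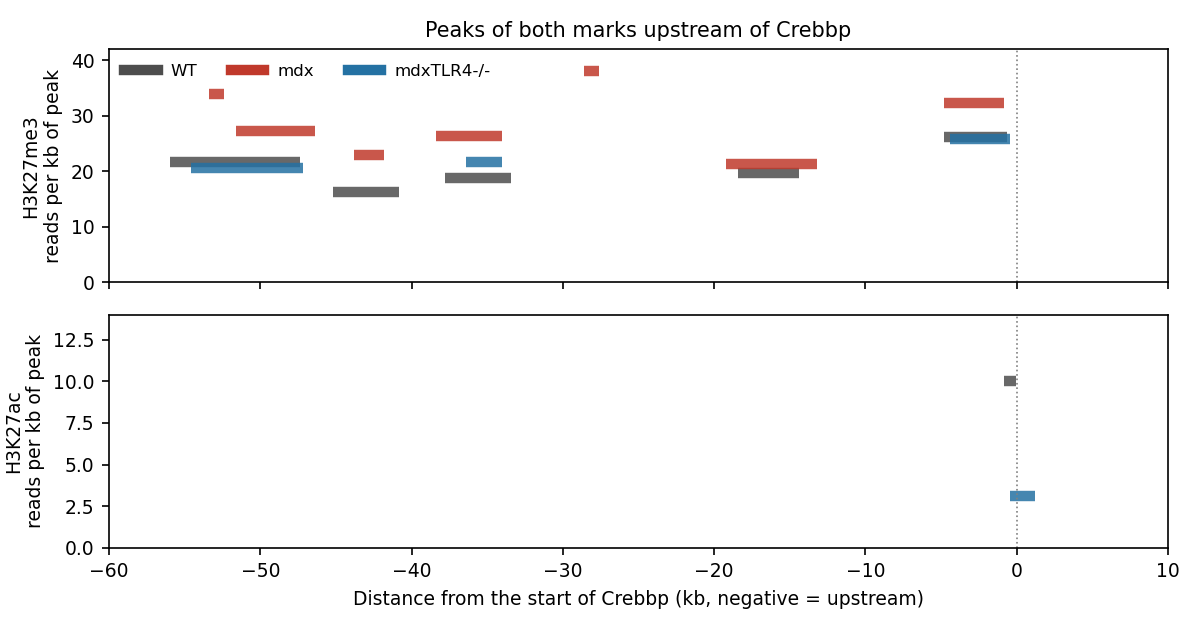
Peaks of H3K27me3 (upper panel) and H3K27ac (lower panel) upstream of Crebbp, with the distance from the start in kb on the x axis and reads per kb of peak, unscaled, on the y axis. Each bar is 1 called peak and its colour gives the genotype. The domain next to the start was called in all 3 genotypes, and H3K27ac in WT and mdxTLR4-/- BMDM only.

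Farther upstream the Crebbp domain was followed by others. From the start to 60 kb upstream, 5 H3K27me3 peaks stood in the WT list, 7 in that of mdx and 3 in that of mdxTLR4-/-, the domain at Crebbp included. A second domain reached from -18.4 to -14.4 kb in WT, with 79 reads, and from -19.2 to -13.2 kb in mdx, with 128 reads, and was not called in mdxTLR4-/- BMDM. The farthest ran from -56.0 to -47.4 kb with 187 reads in WT, from -54.6 to -47.2 kb with 153 reads in mdxTLR4-/-, and was split into 2 peaks with 142 and 34 reads in mdx BMDM.

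The 2 marks met at the edge of this domain. In WT BMDM an H3K27ac peak of 800 bp with 8 reads (interval 3.45 to 15.8) ended 4 bp before the Crebbp start, and its distal 200 bp lay under the H3K27me3 domain. These are the bases printed above as carrying both marks. Peak edges fall on a grid of 200 bp, so the extent of this overlap is not resolved below that step. In mdxTLR4-/- BMDM an H3K27ac peak of 1600 bp with 5 reads (1.62 to 11.7) covered the start and abutted the domain with 0 bp shared. In mdx BMDM no H3K27ac peak was called at Crebbp. A peak over cells in bulk cannot show whether both marks sat on the same chromosome, and counts of 5 and 8 reads are close to the minimum of 5 in any listed peak.

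The part of the Crebbp domain shared by the 3 genotypes was poor in CpG, also beside H3K27me3 peaks in general. The 3600 bp shared by the 3 genotypes, chr16:4214801-4218400, overlapped 0 exons, had a GC content of 45.4% and held 14 CpG, an observed-over-expected ratio of 0.0757. The median of that ratio was 0.204 over all H3K27me3 peaks in WT cells, 0.198 in mdx cells and 0.200 in mdxTLR4-/- cells, and 1.18%, 2.64% and 2.82% of the peaks had a lower one. Those peaks were taken whole, whereas the shared part leaves out edges of the Crebbp peaks. These shares are therefore not the rank of the whole Crebbp peak in any list. Of the shared bases, 26.2% were marked as repeats in the reference. By contrast, the 250 bases before the Crebbp start held 32 CpG at a ratio of 1.01. The 200 bases under both marks in WT BMDM, at the edge of the domain, held 6 CpG at a ratio of 0.366, between the values of the stretches on either side.

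H3K27ac was compared next, at the start of each gene record. A peak over the start was found for 5 of the 10 genes in the WT list (Eed, Suz12, Mtf2, Rbbp4 and Ep300), 4 in that of mdx (Eed, Suz12, Rbbp4 and Ep300) and 5 in that of mdxTLR4-/- (Ezh2, Eed, Mtf2, Rbbp4 and Crebbp). The background shares of protein-coding genes were 24%, 20.6% and 20.9%. Peak edges fall on a grid of 200 bp, and some peaks missed a start by less than that. These were the peaks of Crebbp in WT, Mtf2 and Jarid2 in mdx, and Ep300 in mdxTLR4-/- BMDM. Within 1 kb of the start, 8 genes had a peak in WT cells, 6 in mdx cells and 6 in mdxTLR4-/- cells, against 27.9%, 23.8% and 25.7% of protein-coding genes. Anywhere in the window, 10, 7 and 9 genes had one, against 39.9%, 34.5% and 36.5% of protein-coding genes and 49.8%, 43.2% and 45.8% of those with windows of at least 20 kb. Eed, Mtf2, Rbbp4 and Ep300 had a peak within 1 kb in all 3 lists, as 18.3% of protein-coding genes did, and Eed and Rbbp4 had one over the start in all 3, as did 13.7%. No list had a peak over the start of Ezh1, Jarid2 or Kdm6b, which is the state of 70% of genes, and none within 1 kb of that of Ezh1 or Kdm6b, as for 66.5%. The level where a peak was present was close to the background. The median over the genes with a peak within 1 kb was 17 reads in the WT list, 16 in that of mdx and 12 in that of mdxTLR4-/-, and 16, 14 and 11 over protein-coding genes.

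**Figure D2:**
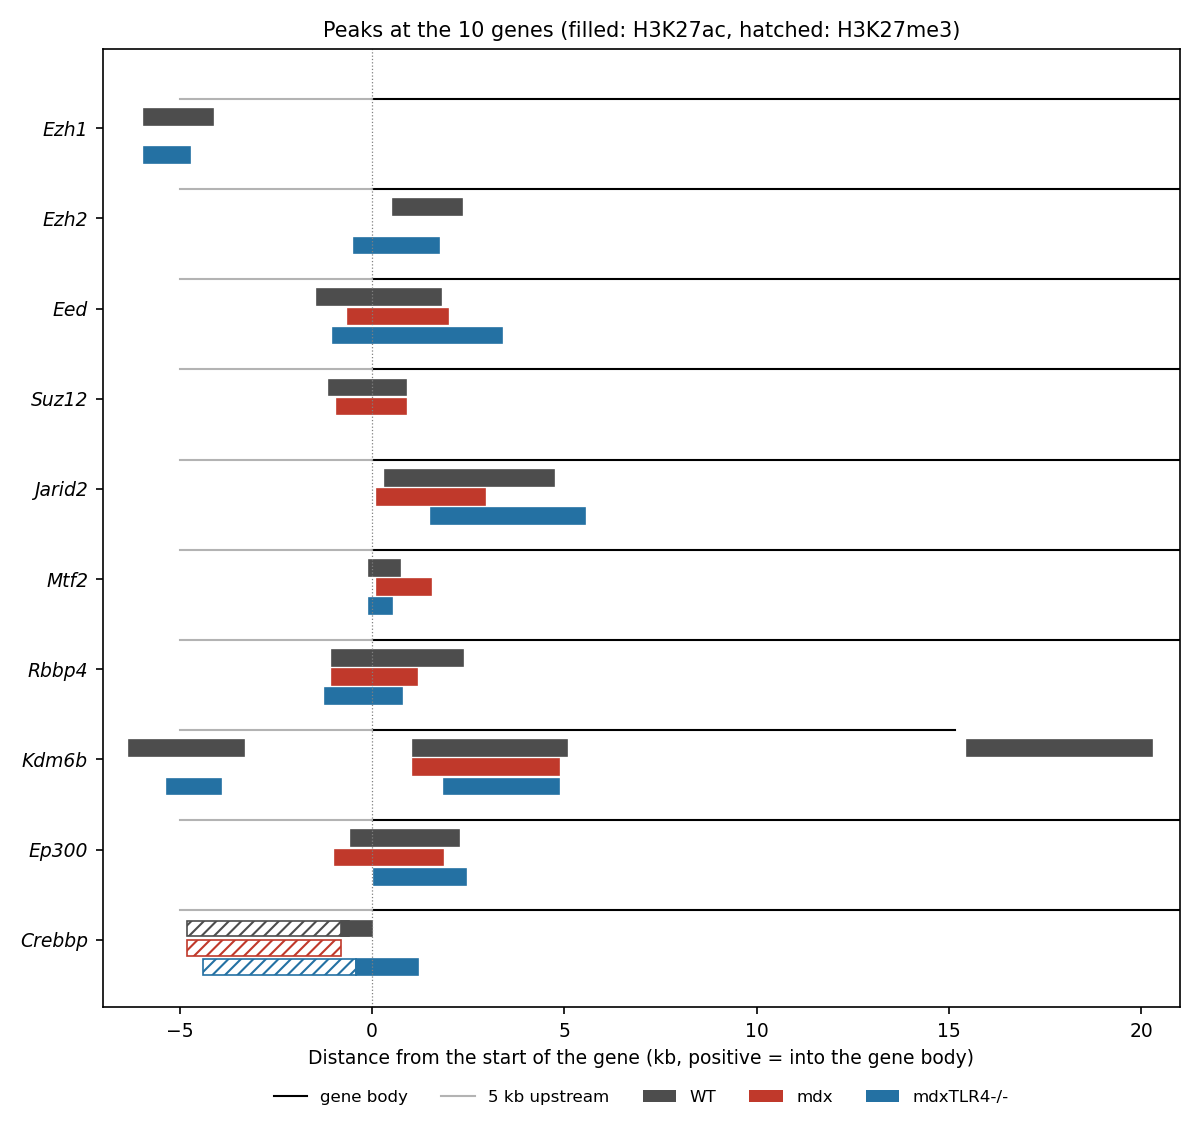
Called peaks around the starts of the 10 genes, with the distance from the start in kb on the x axis and 1 row per gene. Filled bars are H3K27ac and hatched bars H3K27me3, in grey (WT), red (mdx) and blue (mdxTLR4-/-), and lines mark the upstream window and the gene body, which is drawn to 21 kb at most. Peaks sit over or just inside most starts, Kdm6b is marked 1 to 5 kb inside the body, and H3K27me3 appears at Crebbp alone.

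Among the catalytic subunits of PRC2, Ezh1 (ENSMUSG00000006920.14, chr11:101191115-101226463, minus strand), the form found mainly in cells that do not divide, had no H3K27ac at its start. Its only peaks lay upstream, from -5.94 to -4.14 kb with 7 reads in WT (interval 2.81 to 14.4) and from -5.94 to -4.74 kb with 6 reads in mdxTLR4-/- BMDM (2.20 to 13.1), with none in mdx BMDM. Ezh2 (ENSMUSG00000029687.16, chr6:47530139-47595341, minus strand), the form typical of dividing cells, was marked differently in each list. In WT BMDM a peak with 7 reads (2.81 to 14.4) lay inside the gene from 0.541 to 2.34 kb, in mdx BMDM there was none, and in mdxTLR4-/- BMDM a peak with 15 reads (8.40 to 24.7) covered the start from -0.459 to 1.74 kb. Against WT, the reads of peaks within 1 kb in mdxTLR4-/- BMDM were 2.14-fold unscaled (0.822 to 6.21). Such counts take all reads of any peak that reaches within 1 kb of the start, and the WT peak lay mostly beyond that distance. Over the 4785 protein-coding genes with a peak within 1 kb in both lists, the median of that ratio was 0.692, and relative to it Ezh2 stood at 3.10 (1.19 to 8.97). A relative ratio higher than 1.5 was found for 17% of those genes.

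Both starts are CpG-rich. The 250 bases before the start are printed for the 2 enzymes and for Eed and Rbbp4, the 2 genes with a peak over the start in every list, with CpG in capitals as above. All 4 genes lie on the minus strand, and the stretches are chr11:101226464-101226713, chr6:47595342-47595591, chr7:89980984-89981233 and chr4:129335371-129335620.
Ezh1, 250 bases before the start: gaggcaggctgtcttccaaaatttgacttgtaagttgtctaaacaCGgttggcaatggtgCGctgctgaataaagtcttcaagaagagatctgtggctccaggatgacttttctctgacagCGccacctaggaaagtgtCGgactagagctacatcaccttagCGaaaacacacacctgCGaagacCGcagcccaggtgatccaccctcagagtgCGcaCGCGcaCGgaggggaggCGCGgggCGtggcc
Ezh2, 250 bases before the start: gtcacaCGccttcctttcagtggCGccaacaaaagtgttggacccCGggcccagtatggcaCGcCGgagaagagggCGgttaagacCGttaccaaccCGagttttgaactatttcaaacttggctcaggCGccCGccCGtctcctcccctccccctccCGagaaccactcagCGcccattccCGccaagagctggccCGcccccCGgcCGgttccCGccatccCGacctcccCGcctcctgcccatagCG
Eed, 250 bases before the start: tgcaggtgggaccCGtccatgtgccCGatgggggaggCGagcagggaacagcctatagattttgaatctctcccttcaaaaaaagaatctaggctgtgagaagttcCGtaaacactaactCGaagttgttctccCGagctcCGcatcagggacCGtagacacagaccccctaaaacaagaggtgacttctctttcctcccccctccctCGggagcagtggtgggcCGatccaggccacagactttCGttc
Rbbp4, 250 bases before the start: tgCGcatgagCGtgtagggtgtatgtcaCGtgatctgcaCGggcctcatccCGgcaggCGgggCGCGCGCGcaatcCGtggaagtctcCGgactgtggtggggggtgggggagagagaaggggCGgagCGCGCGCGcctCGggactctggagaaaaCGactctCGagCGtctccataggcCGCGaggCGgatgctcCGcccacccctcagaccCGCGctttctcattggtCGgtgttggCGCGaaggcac

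These stretches held 14 CpG for Ezh1, 21 for Ezh2, 11 for Eed and 30 for Rbbp4. Ezh1, without a peak at the start in any list, had more CpG before it than Eed, which had the most H3K27ac reads at its start of the 10 genes. Over the wider stretch from 250 bases before to 50 after the start, the observed-over-expected CpG ratio had a median of 0.849 over the 10 genes, from 0.211 in Kdm6b to 1.12 in Rbbp4, and of 0.524 over 21931 protein-coding genes. It was above 0.6 in 8 of the 10, or 80%, and in 44.3% of all. The exceptions were Jarid2 at 0.497 and Kdm6b at 0.211, both of which carried H3K27ac inside the body rather than over the start of the gene record. Motifs were searched on both strands of the same 300 bases, and a match describes the letters alone. The GC box GGGCGG was present in 6 of the 10 genes and in 43.0% of all, and CCAAT in 5 and in 39.0%. TTTGGCGC and TTTCGCGC, 2 forms of the E2F motif, the ETS motif CCGGAAGT, its PU.1-type form GAGGAAGT and the CRE motif TGACGTCA were present in none of the 10, and in between 0.351% and 4.70% of all.

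Among the core subunits, Eed (ENSMUSG00000030619.9, chr7:89954654-89980983, minus strand), whose product binds H3K27me3 and stimulates the enzyme, had 37 H3K27ac reads in the peak over its start in WT cells (interval 26.1 to 51.0), 23 in mdx cells (14.6 to 34.5) and 20 in mdxTLR4-/- cells (12.2 to 30.9). The start of E230029C05Rik, 260 bp away on the other strand, lay under the same peaks, and reads of the 2 genes cannot be told apart. Rbbp4 (ENSMUSG00000057236.10, chr4:129307100-129335370, minus strand) encodes a histone-binding protein that also serves in other chromatin complexes. It had 27 reads in the WT list (17.8 to 39.3), 20 in that of mdx (12.2 to 30.9) and 18 in that of mdxTLR4-/- (10.7 to 28.4), under peaks that also covered the start of Zbtb8os, 325 bp away. For both genes the unscaled count was highest in WT, and the intervals of the 3 genotypes overlapped. Suz12 (ENSMUSG00000017548.15, chr11:79993106-80034123, plus strand), the scaffold of the complex, had 13 reads in WT (6.92 to 22.2) and 9 in mdx (4.12 to 17.1), and no peak in mdxTLR4-/- BMDM. Of protein-coding genes with a peak within 1 kb in WT, 21.8% had none in mdxTLR4-/- BMDM, and 25.6% had none in mdx.

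The accessory subunits help PRC2 reach its sites on DNA. Mtf2 (ENSMUSG00000029267.17, chr5:108065674-108109004, plus strand) encodes a Polycomb-like protein that binds CpG-rich DNA. Its peak held 15 reads in 800 bp in WT (interval 8.40 to 24.7) and 8 reads in 600 bp in mdxTLR4-/- BMDM (3.45 to 15.8), both over the start, whereas the mdx peak held 10 reads in 1400 bp (4.80 to 18.4) and began 127 bp inside the gene. At 18.8 reads per kb in WT, Mtf2 had the highest density of any H3K27ac peak over a start among the 10 genes in that list. Jarid2 (ENSMUSG00000038518.15, chr13:44729474-44921643, plus strand), a relative of the lysine demethylases without their activity, had no peak over the start of its gene record. Its peaks began 327 bp inside the gene with 19 reads in WT (11.4 to 29.7), 127 bp inside with 12 reads in mdx (6.20 to 21.0), and 1527 bp inside with 20 reads in mdxTLR4-/- BMDM (12.2 to 30.9). Starts of 5, 6 and 2 of its protein-coding transcripts lay under these peaks, so that transcripts that begin within the body were marked. The density was 4.32, 4.29 and 5.00 reads per kb, and relative to the median over genes it stood at 1.12 (0.494 to 2.42) in mdx and 1.35 (0.684 to 2.68) in mdxTLR4-/- against WT.

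The long body of Jarid2 held further peaks. One about 140 kb into the gene, in an intron of the transcript with the most exons, was called in every genotype, with 10 reads in WT cells, 10 in mdx cells and 6 in mdxTLR4-/- cells. A peak 37.9 kb into the gene with 10 reads was called in WT alone, and one at 70.3 kb with 8 reads in mdx alone.

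**Figure D3:**
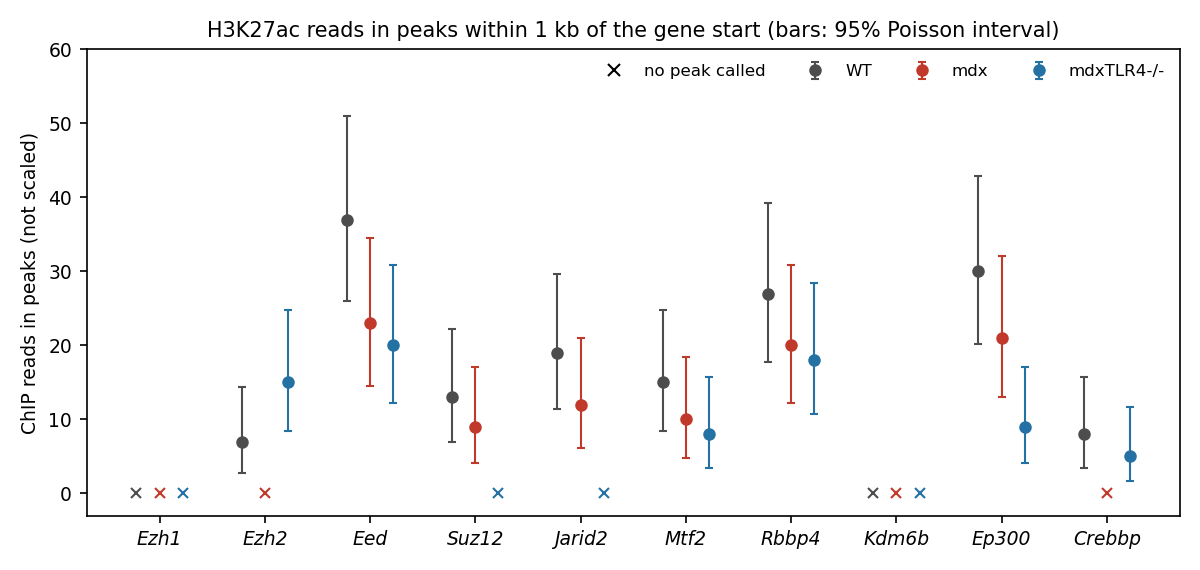
H3K27ac reads in the peaks within 1 kb of the start of each of the 10 genes, unscaled, on the y axis, with 1 point per genotype. Bars are 95% Poisson intervals of the count, and crosses at 0 stand for lists without a peak there. Eed has the highest count in each list, at 37, 23 and 20 reads, and the intervals of WT and mdx overlap wherever both have a peak.

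Of the demethylase, Kdm6b (ENSMUSG00000018476.7, chr11:69398508-69413675, minus strand), the start of the gene record had no H3K27ac peak within 1 kb in any list, but the body did. A peak began 1075 bp inside the gene in WT and mdx and 1875 bp inside in mdxTLR4-/- BMDM. It held 64 reads in the WT list (interval 49.3 to 81.7), 42 in that of mdx (30.3 to 56.8) and 45 in that of mdxTLR4-/- (32.8 to 60.2), more than any other H3K27ac peak of the 10 genes in each list. Per kb of peak these are 16.0, 11.1 and 15.0 reads. Unscaled, mdx stood at 0.691 of WT (0.457 to 1.04) and mdxTLR4-/- at 0.937 of WT (0.626 to 1.39). Relative to the median over genes with a peak over the start, these became 0.776 (0.513 to 1.16) and 1.09 (0.730 to 1.63), and mdxTLR4-/- stood at 1.44 of mdx (0.924 to 2.25). Each of these 3 intervals includes 1. Per 1000000 reads in peaks, a scaling tried after seeing the data, mdxTLR4-/- stood at 1.52 of WT (1.02 to 2.27). On that scale mdx stood at 0.988 of WT (0.653 to 1.48) and mdxTLR4-/- at 1.54 of mdx (0.991 to 2.41). The first of these intervals excludes 1, but the scaling moves all genes by the same factor. Relative to the median that value stays at 1.09, so no difference is read from it.

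The acetylated interval of Kdm6b differed from its start in sequence. The 3000 bp shared by the 3 lists, chr11:69408801-69411800, overlapped 0 exons, had a GC content of 60.8% and held 174 CpG at an observed-over-expected ratio of 0.643, and the 300 bases printed above held 28 CpG. The 250 bases before the start of the gene record held 3 CpG at a ratio of 0.212. H3K27ac thus lay over the CpG-rich interval and not over the CpG-poor start. Upstream of Kdm6b, a peak with 20 reads ran from -6.33 to -3.33 kb in WT and one with 10 reads from -5.33 to -3.93 kb in mdxTLR4-/- BMDM. The former lay under 1 kb from the H3K27me3 peak nearest to Kdm6b. Past the end of the gene, WT BMDM alone had a peak with 50 reads, which covered the starts of Cyb5d1 and Naa38. Summed over the window, Kdm6b therefore had 134 reads in WT cells, 42 in mdx cells and 55 in mdxTLR4-/- cells. The unscaled ratio of mdx to WT was 0.313 (0.216 to 0.446). That sum includes flanking peaks that were called in WT and not in mdx, and is not read as a difference between genotypes.

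Of the acetyltransferases, Ep300 (ENSMUSG00000055024.12, chr15:81585351-81652077, plus strand) had 30 reads in the WT list (interval 20.2 to 42.8), 21 in that of mdx (13.0 to 32.1) and 9 in that of mdxTLR4-/- (4.12 to 17.1). The mdxTLR4-/- peak began 50 bp inside the gene and so did not count as one over the start. The peaks of WT and mdx also covered the start of 1110025M09Rik on the other strand, and those of all 3 lists covered that of Gm23880, so that no count belongs to Ep300 alone. Against WT, the reads of peaks within 1 kb in mdxTLR4-/- BMDM were 0.300-fold unscaled (0.125 to 0.648). They stood at 0.433 relative to the median over genes (0.181 to 0.936). Per 1000000 reads in peaks they stood at 0.488 (0.204 to 1.05), where the interval includes 1. A relative ratio lower by over 1.5 times was found for 17.5% of protein-coding genes. Against mdx the relative value was 0.496 (0.200 to 1.13). Crebbp (ENSMUSG00000022521.10, chr16:4081328-4213997, minus strand) had 8, no and 5 reads in peaks within 1 kb in the WT, mdx and mdxTLR4-/- lists, close to the minimum of a listed peak. Of the 2 paralogs, Ep300 had no H3K27me3 within 71.1 kb of its start, and Crebbp had the H3K27me3 domain. The intervals of their H3K27ac counts overlapped in mdxTLR4-/- BMDM and not in WT, where Ep300 was higher, and in mdx only Ep300 had a peak. However, every Ep300 count comes from a peak that also covers the start of another gene.

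The genotypes were compared at the genes with a peak over the start in both lists. The ratio of reads per kb was divided by its median over protein-coding genes, which was 0.890 for mdx against WT (3722 genes, a log2 shift of -0.17), 0.857 for mdxTLR4-/- against WT (3706 genes, -0.22) and 0.943 for mdxTLR4-/- against mdx (3362 genes). In mdx against WT, the relative ratio was 0.860 for Eed (interval 0.488 to 1.49), 0.864 for Suz12 (0.326 to 2.19), 1.29 for Rbbp4 (0.684 to 2.38) and 0.787 for Ep300 (0.428 to 1.42). None of these 4 passed 1.5 times in either direction, which 18.1% of protein-coding genes did upwards and 19% downwards, and all 4 intervals include 1. Per 1000000 reads in the peaks of each list, Rbbp4 stood at 1.64 (0.870 to 3.03), past 1.5 times. On that scale Eed stood at 1.09, Suz12 at 1.10 and Ep300 at 1.00, and all 4 intervals still include 1. This scaling moves all genes by the same factor, so the 4 values relative to the median stay as above. The share of all genes past 1.5 times on that scale is not given here. In mdxTLR4-/- against WT, Mtf2 stood at 0.830 (0.305 to 2.08), Rbbp4 at 1.32 (0.686 to 2.49) and Eed at 0.459 (0.252 to 0.811). On this scale 1 of these 3 genes, Eed, was past 1.5 times, beside 18.2% of protein-coding genes higher and 19.1% lower. Per 1000000 reads in peaks, Eed stood at 0.639 (0.352 to 1.13) and Rbbp4 at 1.84 (0.956 to 3.47), both past 1.5 times. Mtf2 stood at 1.16 (0.425 to 2.91), and all 3 intervals include 1. With densities divided by the 1st percentile of their list, Eed at 0.344 (0.189 to 0.608) and Mtf2 at 0.622 (0.228 to 1.56) were past it. Both scalings move all genes by the same factor, so the values relative to the median stay as given first. By the reads of the peak, not divided by length, 0 of the 3 genes were past 1.5 times. In mdxTLR4-/- against mdx, Eed stood at 0.545 (0.284 to 1.04), past 1.5 times, and Rbbp4 at 1.05 (0.524 to 2.09), beside 21.1% higher and 18.6% lower. The interval of Eed excluded 1 unscaled, at 0.514 (0.268 to 0.978), and relative to the 1st percentile, at 0.450 (0.234 to 0.856). Per 1000000 reads in peaks, at 0.584 (0.304 to 1.11), it did not. These scalings, too, move all genes alike. The lower density of Eed went with a longer peak, of 4400 bp in mdxTLR4-/- against 3200 bp in WT and 2600 bp in mdx BMDM. By reads of peaks within 1 kb, not divided by length, Eed stood at 0.781 of WT (0.429 to 1.38) and 1.01 of mdx (0.525 to 1.92) relative to the median. The values of mdx and mdxTLR4-/- against WT share the WT list.

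Summed over the windows of the 10 genes, there were 14 H3K27ac peaks in WT cells, 9 in mdx cells and 11 in mdxTLR4-/- cells. Of these, 4, 3 and 3 also covered the start of another gene. They held 317 reads in the WT list (interval 283 to 354), 155 in that of mdx (132 to 181) and 162 in that of mdxTLR4-/- (138 to 189). Per 1000000 reads in the peaks of each list the sums were 1157 (1033 to 1291), 809 (687 to 947) and 961 (819 to 1121). The WT value was the highest on both scales. It rested in part on the peak past the end of Kdm6b that was called in WT alone, without which WT had 267 reads, or 974 per 1000000 (861 to 1099), and all 3 scaled intervals overlapped. Such sums move with how much was called in each list and are not read as a difference between genotypes.

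To place these genes among their partners, 52 other genes of the Polycomb and acetylation machinery were listed. H3K27me3 was absent from the windows of 33 of the 52 in every list, beside 55.5% of protein-coding genes. At least 50% of the window was covered in every genotype for 4 of the 52 genes, beside 14% of protein-coding genes. Epop, which encodes a PRC2 partner, had 91.6% of its window covered in WT cells, 100% in mdx cells and 90.4% in mdxTLR4-/- cells. The other 3 encode chromobox subunits of PRC1, which bind H3K27me3. Cbx2 had 67.9%, 90.2% and 83.2%, Cbx8 86.9%, 77.5% and 77.5%, and Cbx7 72.4%, 65.6% and 67.2%. An H3K27me3 peak lay over the start of Epop and Cbx7 in every list and over that of Cbx2 in WT and mdx BMDM, and no list had one over the start of Cbx8. As a reference for a strong Polycomb target, all 39 Hox genes had an H3K27me3 peak in each list, and 38, 37 and 36 of them had at least 50% of the window covered.

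By complex, and beside 38.4%, 41.3% and 39% of protein-coding genes in the 3 lists, any H3K27me3 was found for 13 of 21 PRC1 genes in WT and 12 in mdx and mdxTLR4-/- BMDM, for 2 of 6 other PRC2 partners in each list, for 1 of 7 other acetyltransferases in each, and for 2, 1 and 1 of 14 genes of the deacetylase complexes. H3K27ac within 1 kb of the start in every list was found for 14 of the 52, beside 18.3% of protein-coding genes, and in none for 23, beside 66.5%. Kdm6a, the X-linked demethylase of the same family as Kdm6b, had H3K27ac over its start in every list, with 36 reads in WT, 31 in mdx and 27 in the mdxTLR4-/- list, and no H3K27me3. Among the genes without H3K27ac over the start in any list were Aebp2 and Lcor of the PRC2 partners, Bmi1 and Cbx6 of PRC1, the acetyltransferases Kat2a and Kat6b, Hdac3, Mta1 and Rcor1 of the deacetylase complexes, and Brd3, a reader of acetylated histones. Among these genes, peaks within 1 kb of the start held 5 reads for Aebp2 in mdxTLR4-/- BMDM, and 10, 8 and 5 for Rcor1.

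**Figure D4:**
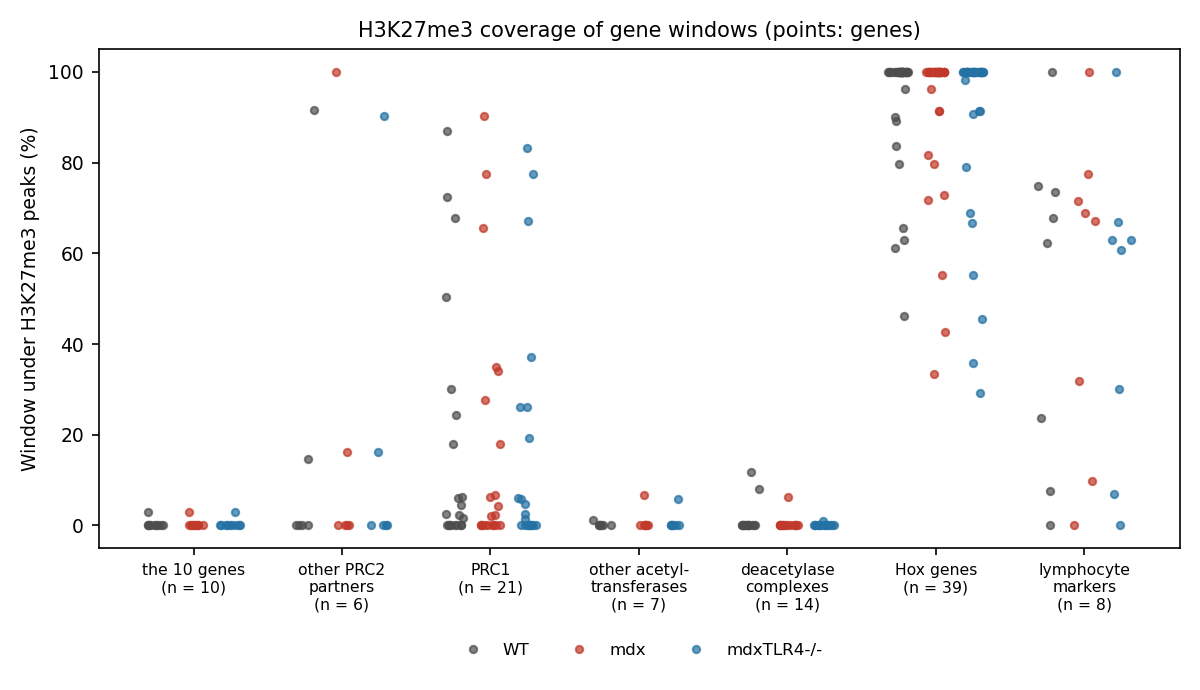
Share of each gene's window (5 kb before the gene to 1 kb after it) under H3K27me3 peaks, in percent, on the y axis, with 1 point per gene and genotype. The gene lists are on the x axis. The 10 genes lie at 0% but for Crebbp at about 3%, the Hox genes lie mostly at 100%, and the PRC1 genes spread from 0% to 90.2%.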

How the data were processed

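Per the labels and the methods of the study, native chromatin was cut with micrococcal nuclease. The authors trimmed reads with cutadapt 1.15, mapped them to mm10 with Bowtie2 2.3.4, merged replicates and called peaks with SICER 2.0 (window 200 bp, gap 600 bp, FDR below 0.01). CASAVA 1.8 is also named in the processing notes. The handling of duplicate reads is not given in the sources used here. Each deposited value is a count of ChIP reads in a peak, which the authors made without scaling for depth or length and without subtracting input. Samples labelled mTLR4 were taken as mdxTLR4-/-.

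The files were 6 peak lists from 18 samples. Positions were put on a scale that begins at 1, and 0 peaks ran past a chromosome end of GRCm38. Genes came from GENCODE vM21 (55413 outside the mitochondrial chromosome, 21938 protein-coding). The start of a gene is the 5′ end of its record, and exons were taken from the coding transcript that has most of them. The 10 genes, the wider lists and the markers were chosen with earlier results of these data known. All 10 genes were named. From each wider list, up to 3 genes with at least 50% of the window under H3K27me3 in any genotype and up to 3 without H3K27ac over the start in any list were named. Kdm6a and the most abundant markers were named after their values were seen.

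With 1 list per genotype no p-value was computed. Intervals are at the 95% level, exact Poisson for counts and exact Clopper-Pearson for ratios of 2 counts, and cover counting error alone. Density ratios were divided by the median over protein-coding genes, and 1.5 times either way counted as past the threshold. Coverage, start overlap and ratios were checked on simulated lists. Alternatives covered peak length, density and read minimums, equal peak numbers, the window, the coverage minimum, the scaling and the threshold. A peak was within 1 kb of a start if any part of it lay there, and all its reads were then counted. Ratios of reads of peaks within 1 kb, and of the peaks inside Kdm6b and Jarid2, were added after the data were seen. Python 3.11.15, numpy 2.4.6, pandas 2.3.3, scipy 1.17.1 and matplotlib 3.10.9 were used. Read intensity over input was not analysed here. One marker gene is not reported here.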

Additional observations from a re-analysis of the deposited data

How the results depend on the processing

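The alternatives gave 84 values, of which 72 were classed as the same as those reported and 12 as moved. Alternatives chosen after seeing the data gave 40 values, 38 and 2 respectively. A value was judged by 1.5 times or by counting error, depending on its kind, so a move can be smaller than 1.5 times. With the gene body alone as the window, the number of the 10 genes with any H3K27me3 peak was 0 in WT cells, 0 in mdx cells and 0 in mdxTLR4-/- cells, since the Crebbp domain lies upstream. For H3K27ac over the start, a distance of up to 1 kb gave 8 genes in WT, and peaks of at least 10 reads gave 3 in mdxTLR4-/- BMDM. With scaling to 1000000 reads in peaks, the number of genes past 1.5 times in density at the start became 1 in mdx against WT and 2 in mdxTLR4-/- against WT. The median ratio of the genes compared was 1.10 and 1.16 on that scale, and 0.862 and 0.830 relative to the median over protein-coding genes. This scaling moves all genes by the same factor, so these moves are not changes relative to other genes. In mdxTLR4-/- against WT the number past 1.5 times was also 2 relative to the 1st percentile of density, another such scaling. It was 0 by reads not divided by length, and 2 by reads of peaks within 1 kb, a choice made after seeing the data (Ezh2 higher and Ep300 lower). Without peaks past the end of a gene, also chosen after seeing the data, the summed H3K27ac reads of WT were 974 per 1000000. In mdxTLR4-/- against mdx the number past the threshold was 0 by reads not divided by length and 0 with a threshold of 2 times.

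No paired analysis was possible because peaks were called on merged replicates, and for the same reason no replicate was left out. Depth limits the comparison of H3K27ac. Among others, the H3K27ac peaks at Crebbp and Ezh1 held 5 to 8 reads, no more than the median peak of their list. Those at Ezh2 in WT, Suz12 in mdx and Mtf2 in mdxTLR4-/- BMDM also held no more than that median. A gene without a listed peak is not shown to differ, and the mdxTLR4-/- list rests on 1 ChIP library.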
